A study of Homo sapiens with 10 samples.

Results

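The genes described here are 10 amino acid transporters of the plasma membrane, SLC3A2, SLC7A1, SLC7A5, SLC7A6, SLC1A4, SLC1A5, SLC38A1, SLC38A2, SLC6A9 and SLC43A1, in retinal pigment epithelial cells treated with sulforaphane. They were taken by gene symbol from the 28380 genes of the count table, from a list chosen with earlier results of these data known. All 10 passed the low-count filter that left 13378 genes for testing. RPE-1 is an established human cell line, made by immortalizing retinal pigment epithelial cells with telomerase. Sulforaphane (SFN) is an isothiocyanate from cruciferous vegetables. In the SFN group, 5 replicates of 50000 RPE-1 cells received 25 µM SFN for 4 h, and in the DMSO group 5 replicates received the vehicle for the same time. Both groups were kept in complete DMEM, so amino acids and serum were present in both. The methods describe Lexogen QuantSeq libraries, which hold the 3′ ends of transcripts, but the labels speak of Illumina library preparation alone. The comparison asks which of these transporter mRNAs changed within 4 h of SFN, in a study of whether the compound evokes the responses of starved cells.

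Amino acids cross the plasma membrane through families of solute carriers (SLC) that differ in their substrates and in whether they exchange 1 amino acid for another or use the sodium gradient. SLC3A2 is a glycoprotein that carries no amino acid itself and brings its partner light chains, among them SLC7A5, SLC7A6 and SLC7A11, to the cell surface. Exchangers such as SLC7A5 take up leucine in return for glutamine, and the sodium-coupled carriers SLC38A1 and SLC38A2 supply that glutamine, which links these carriers to the control of mTORC1 by amino acids. Several of these genes are known targets of ATF4, the transcription factor of the amino acid response, which binds C/EBP-ATF response elements, and SLC7A11 is also a target of NRF2, which binds antioxidant response elements.

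The sequences that bear on these known regulators were looked up at the annotated starts of the 10 genes, in windows from 250 bases before to 50 bases after each start (RefSeq, GRCh38.p14; all 10 genes had at least 1 window). The C/EBP-ATF response element was searched as TGATGNAAN on both strands and was found in a window of 5 of the 10 genes, against 3.61% of all 35116 windows and 2.61% of 9724 tested genes with a window. The 5 sites are shown because they sit at genes that were called higher (SLC3A2, SLC1A4) and at genes that were not (SLC7A1, SLC1A5, SLC38A1). Each is given 5′ to 3′ on the strand of its gene, with the match in capitals.
SLC3A2, chr11:62881719-62881748, + strand: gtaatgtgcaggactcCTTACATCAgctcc
SLC1A4, chr2:64989381-64989410, + strand: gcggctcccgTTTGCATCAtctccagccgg
SLC7A1, chr13:29595662-29595691, - strand: ggcgcactgcTGATGAAACctggcgccgga
SLC1A5, chr19:46784892-46784921, - strand: aggaagtggcTGATGCAAGctgtccagggt
SLC38A1, chr12:46266501-46266530, - strand: cagacccgaaTGATGAAAAgggatcagcta

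In SLC3A2 and SLC1A4 the element lies on the strand opposite to the gene, so that the capitals show its reverse complement. The window of SLC1A5 that holds the match is 1 of 3 for that gene, that of SLC3A2 is 1 of 3, and those of SLC1A4 and SLC38A1 are 1 of 2. Each of these windows lies inside the annotated span of its gene, past the outermost start. No match to these letters was found in the windows of SLC7A5, SLC7A6, SLC38A2, SLC6A9 or SLC43A1. Sequence beyond the windows, such as introns further downstream, was not searched, so these genes cannot be said to lack the element. The antioxidant response element core was searched as TGACNNNGC on both strands. It was found in windows of SLC3A2, SLC7A1, SLC7A5, SLC7A6 and SLC1A5, which is 5 of the 10 genes against 13.3% of all windows and 19.3% of tested genes. The E-box CACGTG, which reads the same on both strands and is bound by MYC and by TFEB, was found in windows of SLC7A5, SLC1A5 and SLC43A1, against 7.26% of all windows and 12.6% of tested genes. A match of these letters is a description of the sequence and not a site shown to be bound. The list holds known ATF4 targets and was chosen with earlier results known, so these shares are description only.

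The 250 bases before the start are printed for the heavy chain SLC3A2 and for its light chain SLC7A5, the pair whose mRNAs are compared below, with the antioxidant response element core of SLC3A2 and the E-box of SLC7A5 in capitals.
SLC3A2, chr11:62881449-62881698, + strand: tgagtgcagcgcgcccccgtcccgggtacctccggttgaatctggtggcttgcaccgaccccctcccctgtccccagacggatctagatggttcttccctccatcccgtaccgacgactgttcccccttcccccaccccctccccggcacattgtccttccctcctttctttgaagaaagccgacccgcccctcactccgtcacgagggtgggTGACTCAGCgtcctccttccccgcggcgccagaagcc
SLC7A5, chr16:87869508-87869757, - strand: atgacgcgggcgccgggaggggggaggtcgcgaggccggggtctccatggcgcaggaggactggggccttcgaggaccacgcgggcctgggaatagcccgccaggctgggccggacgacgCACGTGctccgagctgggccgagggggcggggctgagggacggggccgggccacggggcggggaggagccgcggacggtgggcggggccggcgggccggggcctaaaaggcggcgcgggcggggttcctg

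The core in SLC3A2 ends 29 bases before the annotated start used for its window, which is not the outermost start of that gene. That of SLC7A5 spans the start, from position -2 to 7, and its last bases therefore fall outside the printed stretch.

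The total count per library was 15689294 to 20666692 in DMSO and 12375860 to 17308706 in SFN. Values below are CPM, a gene's counts relative to the size of its library, which was corrected by TMM, and genes were called higher or lower at an adjusted p under 0.05 in edgeR's quasi-likelihood test, where p was adjusted by Benjamini-Hochberg over the 13378 genes. DMSO replicate 1 stood apart. Its Spearman correlation with the other DMSO libraries, over genes, was 0.935 on average, and that of the others 0.979 to 0.982. Relative to the mean of all libraries, the log2 CPM of a gene changed by -0.271 in this library per doubling of its transcript's length, by 0.0872 to 0.148 in the other DMSO libraries and by -0.183 to 0.109 in SFN. Fold changes without this library are therefore given beside those with it. Of all calls, 39.5% were higher in SFN, and this share was 48.9% without DMSO replicate 1, 27.5% with scaling by library size alone and 51% with an offset for transcript length chosen after seeing the data. The methods call the study's replicates independent and give 50000 cells for each, but do not say whether these 10 came from separately grown cultures. They also say that the study's model accounted for repeated measures, without naming what was repeated. The p-values here therefore measure the spread between these samples, which may be technical in part. In bulk RNA, fewer cells of a type and less RNA per cell cannot be told apart. Of 8 listed markers of pigment epithelium, 7 were in the table. RPE65, RLBP1 and TTR had at most 4 counts in any library and LRAT 3 to 12, whereas PMEL had 7 to 29, OTX2 107 to 299 and BEST1 97 to 1244. OTX2 was called lower in SFN (log2 fold change -0.64, edgeR adjusted p = 0.0029), and its part in the results below was not tested.

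After 4 h of SFN the mRNA of 4 of the 10 transporters was higher and of 0 lower. SLC3A2 rose 4.52-fold, SLC1A4 2.15-fold, SLC7A5 1.67-fold and SLC38A2 1.44-fold. Among all genes tested, 23% were called, 9.07% higher and 13.9% lower. Shares over all genes are given as description only, since the 10 were chosen with earlier results known. At an unadjusted p under 0.05, 5 transporters were higher and 0 lower, the fifth being SLC38A1, against 14.6% of all genes higher and 20% lower at that limit. The differentially expressed genes (DEGs), with a log2 fold change above 1 as well, were SLC3A2 and SLC1A4, both higher, whereas of all genes 8.69% were DEGs, 2.94% higher and 5.76% lower. In the 4 genes called, every SFN library lay above every DMSO library, and in the other 6 the groups overlapped. Of all genes tested, 19.9% had no overlap, 8.78% with SFN above and 11.1% with SFN below. The fold change was positive in 9 of the 10 genes, with a median log2 fold change of 0.40 against -0.028 over all genes tested. Without DMSO replicate 1, 5 genes were called higher, SLC7A1 being added, against 22.5% of 13566 genes called higher and 23.5% lower, and with the offset for transcript length 6, SLC7A1 and SLC38A1 being added, against 15.3% of 13324 genes called higher and 14.7% lower.

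**Figure D1:**
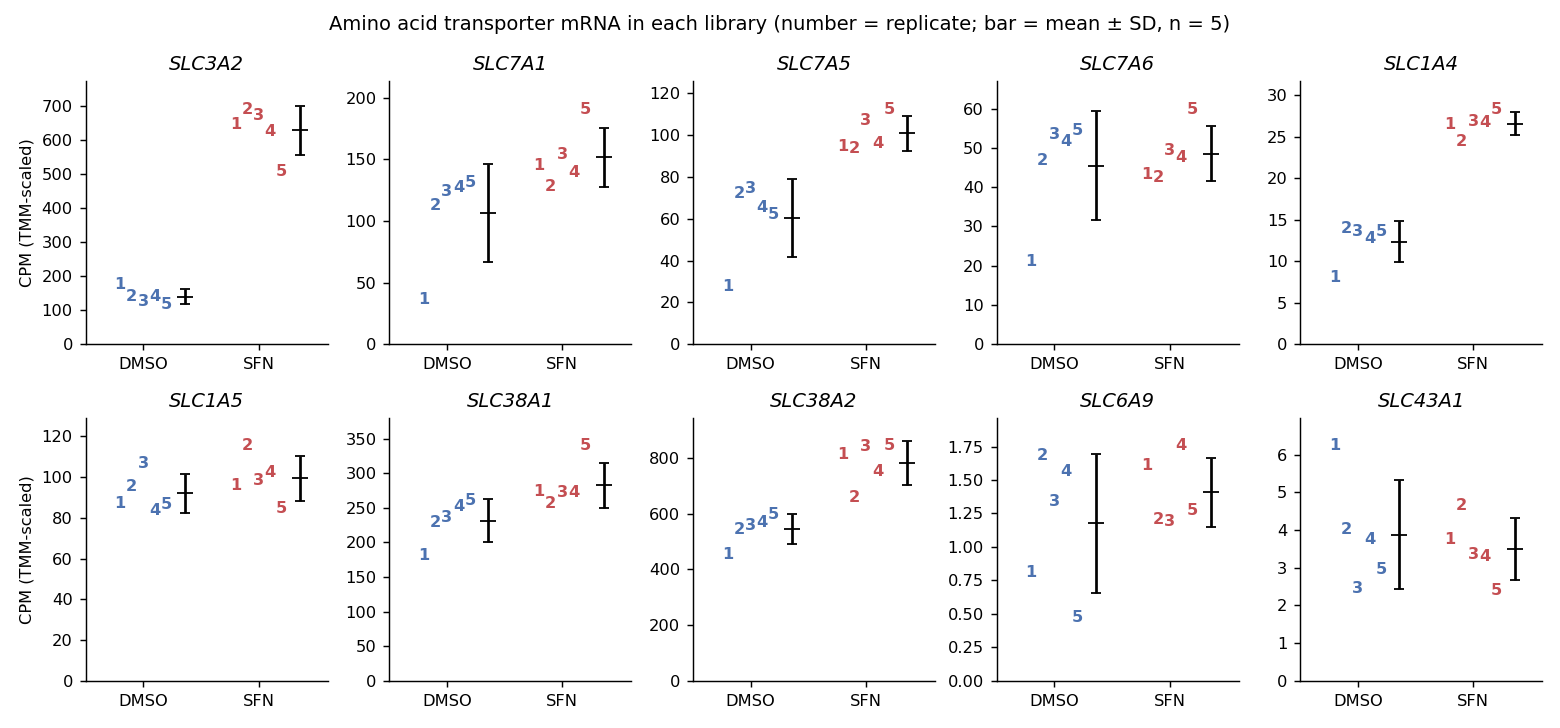
CPM of each transporter in the 5 DMSO and 5 SFN libraries, with each number standing for a replicate and bars for mean ± SD (n = 5). The groups are apart for SLC3A2, SLC7A5, SLC1A4 and SLC38A2, and DMSO replicate 1 is the lowest DMSO library for 6 of the 10 genes.

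The heavy chain SLC3A2 (ENSG00000168003, chr11:62856004-62888880, + strand, GENCODE 44, GRCh38) had the largest fold change of the 10. Its level in DMSO replicates 1 to 5 was 175, 139, 125, 140.1 and 118 CPM, and in SFN replicates 1 to 5 it was 647, 692, 674, 626 and 508 CPM. Even the lowest SFN library, replicate 5, was far above the highest DMSO library, replicate 1. The mean rose from 139 ± 22.0 to 629 ± 72.2 CPM (SD, n = 5 each), a log2 fold change of 2.17 with SE 0.14 and a 95% interval of 1.87 to 2.48 (edgeR adjusted p = 1.2e-06). These levels rest on 1986 to 10852 reads a library. By its p, SLC3A2 ranked 32 among the 13378 genes. Over the 19 alternative analyses its log2 fold change stayed between 2.07 and 2.26 and the call was kept, and without DMSO replicate 1 it was 2.26.

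SLC7A5 (ENSG00000103257, chr16:87830023-87869507, - strand), the light chain of the leucine and glutamine exchanger known as LAT1, was also higher, but by much less than its heavy chain. Its level was 27.8, 72.3, 74.4, 65.2 and 62.2 CPM in DMSO replicates 1 to 5 and 94.8, 93.9, 107, 96.2 and 112 CPM in SFN replicates 1 to 5. The groups did not overlap, and DMSO replicate 1 stood well below the other 4 DMSO libraries. The mean was 60.4 ± 18.9 CPM in DMSO and 101 ± 8.39 CPM in SFN, a log2 fold change of 0.74 (SE 0.22, 95% interval 0.26 to 1.22, edgeR adjusted p = 0.030). Without DMSO replicate 1 the DMSO mean was 68.5 ± 5.73 CPM (n = 4), the groups remained apart, and the log2 fold change was 0.55 (edgeR adjusted p = 2.3e-04). The call was close to the threshold while that library was included. It was lost, by edgeR's adjusted p, with scaling by library size alone (0.096), without DMSO replicate 4 (0.052) or 5 (0.057), and without SFN replicate 1 (0.053), 3 (0.067), 4 (0.057) or 5 (0.060). SLC7A5P1, a pseudogene copy of SLC7A5 that could share its reads, had 0 to 12 counts a library.

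SLC7A6 (ENSG00000103064, chr16:68264516-68301823, + strand) is the light chain of y+LAT2, which exchanges arginine for glutamine and sodium. It was 21.1, 46.8, 53.4, 51.7 and 54.3 CPM in DMSO replicates 1 to 5 and 43.3, 42.4, 49.4, 47.6 and 59.9 CPM in SFN replicates 1 to 5. The groups overlapped, and all DMSO libraries but replicate 1 lay within the range of the SFN libraries. The log2 fold change was 0.09 with a 95% interval of -0.40 to 0.58 (edgeR adjusted p = 0.82) and -0.09 without DMSO replicate 1. Up to 3372 bases of its exons overlap those of SLC7A6OS on the opposite strand, which had 273 to 498 counts a library, and since it is not stated whether strand was used in counting, reads of these neighbours cannot be told apart.

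The cationic amino acid transporter SLC7A1 (ENSG00000139514, chr13:29509414-29595688, - strand), a carrier of arginine and lysine also called CAT1, had levels of 36.1, 112, 124, 127 and 131 CPM in DMSO replicates 1 to 5. In SFN replicates 1 to 5 it was 145, 128, 154, 139 and 191 CPM. DMSO replicate 1 had 29.2% of the mean of the other 4 DMSO libraries, and of those 4 only replicate 5 reached above the lowest SFN library. With all libraries, the log2 fold change of 0.51 was not significant (SE 0.28, 95% interval -0.11 to 1.13, edgeR adjusted p = 0.23). Without DMSO replicate 1 the estimate fell to 0.29 but the DMSO SD fell from 39.8 to 8.02 CPM, and the gene was called higher (edgeR adjusted p = 0.043).

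SLC1A4 and SLC1A5 are exchangers of small neutral amino acids, ASCT1 with serine, alanine and cysteine and ASCT2 with glutamine among its main substrates. For SLC1A4 (ENSG00000115902, chr2:64988477-65023865, + strand) the DMSO libraries 1 to 5 had 8.03, 13.9, 13.5, 12.7 and 13.6 CPM and the SFN libraries 26.5, 24.4, 26.8, 26.7 and 28.3 CPM. All SFN libraries were within a narrow range above every DMSO library. The mean rose from 12.4 ± 2.46 to 26.6 ± 1.39 CPM (SD, n = 5 each), a log2 fold change of 1.10 (SE 0.15, 95% interval 0.78 to 1.42, edgeR adjusted p = 2.5e-04). The call was kept in all 19 alternatives, but without DMSO replicate 1 the log2 fold change was 0.98, below the limit for a DEG.

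SLC1A5 (ENSG00000105281, chr19:46774883-46788594, - strand) was 87.2, 95.5, 107, 83.6 and 86.5 CPM in DMSO replicates 1 to 5. It was 96.0, 115, 98.3, 102 and 84.8 CPM in SFN replicates 1 to 5, so that the groups overlapped over most of their range. The log2 fold change was 0.11, and its 95% interval of -0.13 to 0.35 lies below that of SLC1A4 (edgeR adjusted p = 0.53). It was 0.09 without DMSO replicate 1. Here DMSO replicate 1 lay among the other DMSO libraries. Its exons overlap 780 bases of a long noncoding RNA on the opposite strand, which had 6 to 31 counts a library.

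SLC38A2 and SLC38A1 are system A carriers, known as SNAT2 and SNAT1, which take up glutamine and other small neutral amino acids with sodium. SLC38A2 (ENSG00000134294, chr12:46358188-46372773, - strand), which is known to be induced when amino acids are scarce, was 454, 543, 556, 568 and 597 CPM in DMSO replicates 1 to 5. In SFN it was 812, 659, 841, 753 and 843 CPM, with SFN replicate 2 the lowest and still above all DMSO libraries. The mean was 544 ± 53.9 CPM in DMSO and 781 ± 77.7 CPM in SFN, a log2 fold change of 0.52 (SE 0.11, 95% interval 0.27 to 0.77, edgeR adjusted p = 0.0063). Without DMSO replicate 1 it was 0.46 (edgeR adjusted p = 9.0e-04). Only limma-voom with quantile normalization, the nearest to the study's own method, did not call it (0.37, adjusted p = 0.13).

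SLC38A1 (ENSG00000111371, chr12:46183063-46270017, - strand) was 182, 229, 236, 251 and 260.2 CPM in DMSO replicates 1 to 5 and 274, 256, 272, 272 and 339 CPM in SFN replicates 1 to 5. The groups overlapped only through DMSO replicate 5, which lay above SFN replicate 2. The log2 fold change of 0.29 (95% interval 0.01 to 0.56) had an unadjusted p under 0.05 but was not called (edgeR adjusted p = 0.12). It was 0.21 without DMSO replicate 1 (edgeR adjusted p = 0.082). Of the alternatives, it was called only with the offset for transcript length, at 0.47 (edgeR adjusted p = 0.0010).

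The 2 remaining transporters were near the lower limit of detection. SLC6A9 (ENSG00000196517, chr1:43991500-44031467, - strand), the glycine transporter GLYT1, had 8 to 37 counts a library in DMSO and 14 to 27 in SFN. Its means were 1.18 ± 0.517 and 1.41 ± 0.258 CPM, and the 95% interval of the log2 fold change, -0.47 to 0.97, includes 0.74, the value of SLC7A5 (edgeR adjusted p = 0.64). The estimate itself was 0.25, or 0.14 when DMSO replicate 1 was left out. Up to 219 bases of its exons overlap CCDC24 on the opposite strand, which itself had 36 to 87 counts. SLC43A1 (ENSG00000149150, chr11:57484534-57515780, - strand), a facilitated carrier of large neutral amino acids also called LAT3, had 44 to 100 counts in DMSO and 34 to 63 in SFN. Its log2 fold change was -0.15 (95% interval -0.73 to 0.42, edgeR adjusted p = 0.74), and 0.07 without DMSO replicate 1.

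**Figure D2:**
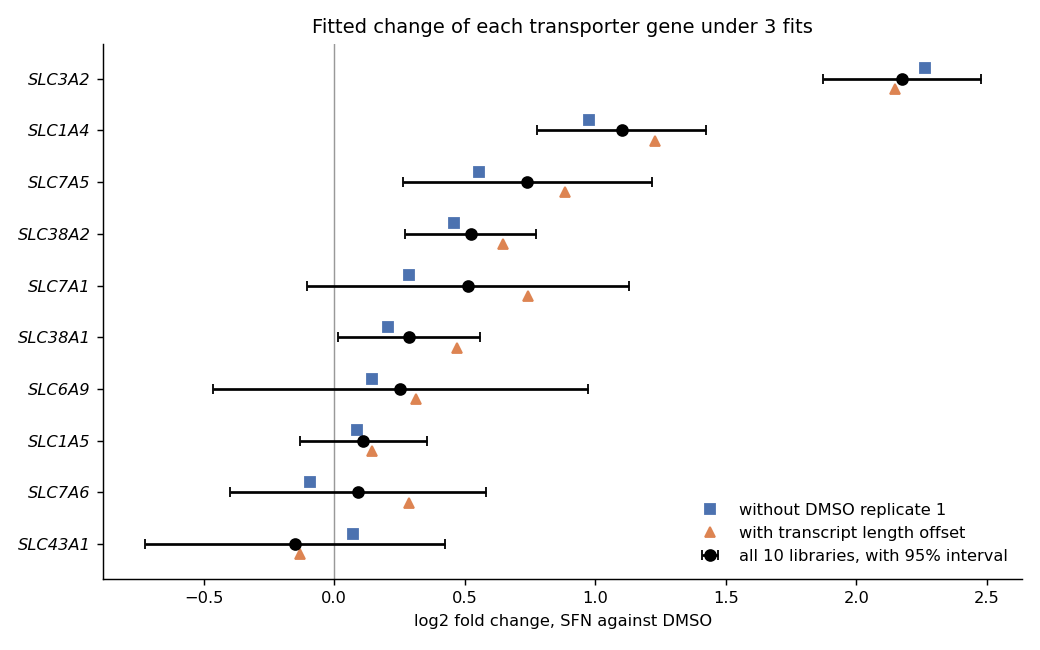
Log2 fold change of SFN against DMSO for each transporter, from edgeR with all 10 libraries (circles, with 95% intervals), without DMSO replicate 1 (squares) and with the transcript length offset (triangles). SLC3A2, SLC1A4, SLC7A5 and SLC38A2 lie above 0 in all of these, as do SLC7A1, SLC38A1, SLC6A9 and SLC1A5, which were not called with all libraries, whereas SLC7A6 and SLC43A1 change sign.

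Related transporters were then compared with each other, by the difference of their log2 CPM within a library. The difference of 2 genes reflects their transcripts and how each is counted as well as their amount, so only its change between the groups is read here. The 5 pairs were tested by the exact permutation test, two-sided, over the 252 ways to divide the libraries, in which the smallest possible p is 0.0079, and p-values were adjusted over the 5 pairs. Within the light chains, SLC7A5 minus SLC7A6 rose from 0.40 ± 0.16 in DMSO to 1.06 ± 0.10 in SFN, a change of 0.66 (SE 0.085, n = 5 each, exact permutation p = 0.0079, adjusted p = 0.013), and the groups did not overlap. In this pair DMSO replicate 1, at 0.40, lay among the other DMSO libraries.

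SLC1A5 minus SLC1A4 fell from 2.90 ± 0.31 to 1.89 ± 0.23, a change of -1.01 (SE 0.17, n = 5 each, exact permutation p = 0.0079, adjusted p = 0.013), again with no overlap. The 2 exchangers therefore differed in their response beyond the spread between libraries. In edgeR with the offset for transcript length, the log2 fold change was 1.23 for SLC1A4 and 0.145 for SLC1A5. SLC38A2 minus SLC38A1 rose from 1.24 ± 0.056 to 1.47 ± 0.13, a smaller change of 0.23 (SE 0.065, n = 5 each, exact permutation p = 0.016, adjusted p = 0.016). Here SFN replicate 5, at 1.31, lay just below DMSO replicate 1, at 1.32.

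Both light chains changed less than their heavy chain. SLC7A5 minus SLC3A2 was -0.95, -0.75, -1.10 and -0.92 in DMSO replicates 2 to 5 but -2.65 in DMSO replicate 1, which lay among the SFN libraries at -2.77, -2.88, -2.65, -2.70 and -2.18. The change was -1.36 (SE 0.37, n = 5 each, exact permutation p = 0.016, adjusted p = 0.016). For SLC7A6 minus SLC3A2 the change was -2.02 (SE 0.39, n = 5 each, exact permutation p = 0.0079, adjusted p = 0.013). Its groups did not overlap, although DMSO replicate 1 at -3.04 came close to SFN replicate 5 at -3.08. Without DMSO replicate 1 these changes were -1.71 and -2.36, and those of the pairs within a class were 0.65 for SLC7A5 minus SLC7A6, -0.88 for SLC1A5 minus SLC1A4 and 0.25 for SLC38A2 minus SLC38A1. All 5 pairs kept an adjusted p under 0.05 when any single library was left out. The pair comparisons used no offset for transcript length. Those with SLC3A2 and that of SLC1A5 with SLC1A4 set a transcript of 1.89 to 3.21 kb against one of 4.56 to 8.10 kb.

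**Figure D3:**
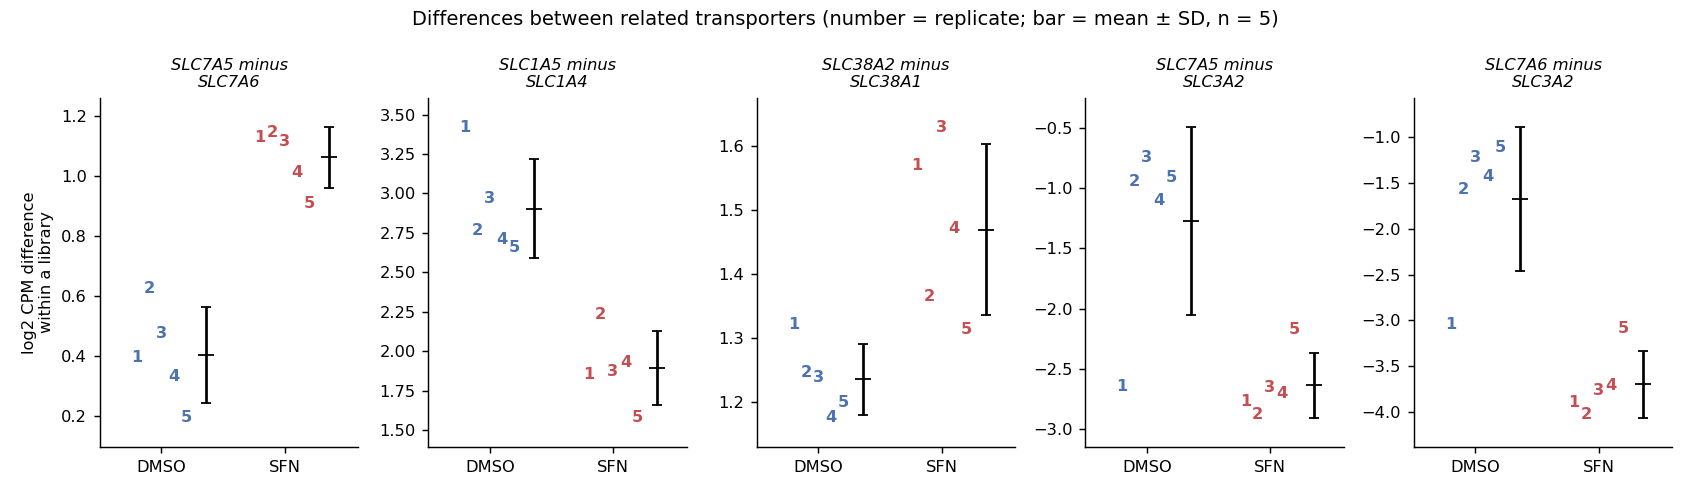
Difference in log2 CPM between related transporters within each library, with numbers for replicates and bars for mean ± SD (n = 5). SLC7A5 minus SLC7A6 and SLC38A2 minus SLC38A1 are higher in SFN and the others lower, and DMSO replicate 1 lies near the SFN libraries in both comparisons with SLC3A2.

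Among libraries of the same treatment, the highest and lowest levels of several genes fell in the same libraries. DMSO replicate 1 was the lowest DMSO library for SLC7A1, SLC7A5, SLC7A6, SLC1A4, SLC38A1 and SLC38A2 and the highest for SLC3A2 and SLC43A1. In SFN, replicate 2 was the lowest library for the same 6 genes, and replicate 5 was the highest for all 6 and the lowest for SLC3A2, SLC1A5 and SLC43A1. These 6 genes have the longest canonical transcripts of the 10, at 4.56 to 8.10 kb, and the other 4 are 1.89 to 3.21 kb long. DMSO replicate 1 had 29.2% of the mean of the other DMSO libraries for SLC7A1 (7.34 kb), 40.6% for SLC7A5 (4.56 kb) and 40.9% for SLC7A6 (6.25 kb). In the same library SLC43A1 (2.51 kb) had 189% and SLC3A2 (1.89 kb) 134% of that mean. The other long transcripts were lowered less, SLC1A4 (4.56 kb) to 59.7%, SLC38A1 (8.10 kb) to 74.4% and SLC38A2 (4.79 kb) to 80.2%. Of the short ones, SLC6A9 (3.21 kb) at 63.9% and SLC1A5 (2.88 kb) at 93.7% were also below that mean. SFN replicates 2 and 5 had the lowest and the highest length slope of the SFN libraries over all genes, at -0.183 and 0.109 log2 CPM for each doubling. With the offset for transcript length, chosen after seeing the data, the log2 fold change of SLC3A2 was 2.15, that of SLC7A5 0.88, that of SLC1A4 1.23 and that of SLC38A2 0.65. What produced these differences between libraries was not tested.

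**Figure D4:**
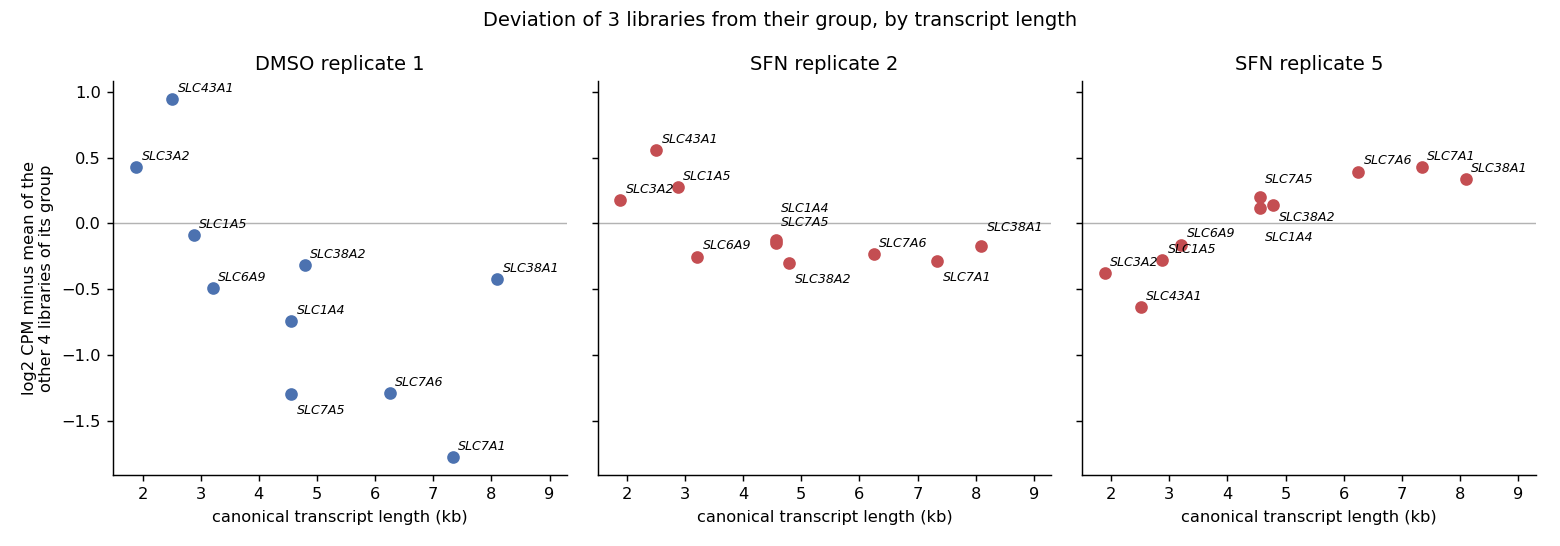
Log2 CPM of each transporter in DMSO replicate 1, SFN replicate 2 and SFN replicate 5, minus the mean of the other 4 libraries of the same group, against the length of the canonical transcript in kb. The 6 long transcripts lie below 0 in DMSO replicate 1 and SFN replicate 2 and above 0 in SFN replicate 5. Of the short ones, SLC6A9 also lies below 0 in DMSO replicate 1 (-0.49) and SFN replicate 2 (-0.25), and SLC1A5 in DMSO replicate 1 (-0.09).

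Other genes of amino acid transport and sensing were taken from lists that do not include these 10. Of 29 other plasma membrane amino acid transporters listed, 18 were in the table and 6 had enough counts. Of these, 1 was higher in SFN and 0 lower (16.7% called, against 23% of all genes tested). This was SLC7A11, the light chain of the cystine and glutamate exchanger xCT and another partner of SLC3A2. It rose from 67.7 ± 9.79 to 206 ± 55.9 CPM (SD, n = 5 each), a log2 fold change of 1.61 with SE 0.19 (edgeR adjusted p = 8.5e-05), with no overlap between the groups. Its log2 fold change was 1.52 without DMSO replicate 1, when 1 of the 6 genes was called lower. SLC7A8, the LAT2 light chain, was 2.33 ± 0.726 and 3.42 ± 1.09 CPM (edgeR adjusted p = 0.20), and the light chains SLC7A7 and SLC7A10 were removed by the filter with at most 7 and 1 counts a library. The median log2 fold change of the 6 was -0.050.

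The list of lysosomal amino acid transporters gave 8 testable genes of 11 listed, among them SLC38A9 and SLC36A1. In edgeR 0 were called higher and 0 lower, against 23% of all genes tested, and 0 had an unadjusted p under 0.05 in either direction. The median of their log2 fold changes was 0.036. Without DMSO replicate 1, 1 of them was called higher and 1 lower.

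Of 10 genes listed as amino acid sensors, 8 were tested, and 2 were higher and 1 lower. That is 37.5% called, against 23% of all genes tested. SLC38A9 stands in this list and in the lysosomal one. SESN2, a leucine sensor of mTORC1 and an ATF4 target, rose from 4.18 ± 1.05 to 48.8 ± 4.22 CPM, a log2 fold change of 3.54 with SE 0.17 (edgeR adjusted p = 1.9e-07). BMT2, which encodes the S-adenosylmethionine sensor SAMTOR, rose from 14.2 ± 2.83 to 41.7 ± 8.87 CPM (log2 fold change 1.55, SE 0.19, edgeR adjusted p = 1.4e-04). SESN1, another sestrin, fell from 8.73 ± 1.23 to 5.19 ± 0.880 CPM (log2 fold change -0.75, SE 0.16, edgeR adjusted p = 0.0052). The groups did not overlap for any of these 3 genes. The log2 fold changes without DMSO replicate 1 were 3.44 for SESN2, 1.44 for BMT2 and -0.82 for SESN1, and of 9 sensors then tested 3 were higher and 2 lower. EIF2AK4, the kinase GCN2 that senses uncharged tRNA, was not called (log2 fold change -0.36, edgeR adjusted p = 0.23). The median over the 8 sensors was -0.076.

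Other SLC genes were taken where the symbol is SLC, a number, the letter A and a number. Subfamilies with other letters were not covered. Among the 169 such genes tested, 13 were higher and 13 lower in SFN, or 15.4%, against 23% of all genes tested. Their median log2 fold change was 0.016. When DMSO replicate 1 was left out, 28 of 171 were higher and 30 lower. After SLC7A11, the largest increases that made a DEG, at 5 CPM or more on average, were in SLC25A25, a mitochondrial carrier of ATP-Mg and phosphate, at 1.16 (SE 0.088, edgeR adjusted p = 3.9e-06), and in the thiamine transporter SLC19A2, at 1.01 (SE 0.11, edgeR adjusted p = 6.1e-05). These were 1.15 and 1.04 without DMSO replicate 1. Only 2 decreases met the same rule with all libraries. The zinc exporter SLC30A1 fell from 66.4 ± 12.5 to 22.2 ± 5.12 CPM (log2 fold change -1.58, edgeR adjusted p = 1.4e-04), and the phosphate transporter SLC20A1 fell from 419.7 ± 92.4 to 200.5 ± 16.8 CPM (log2 fold change -1.07, edgeR adjusted p = 2.7e-04). The values without DMSO replicate 1 were -1.69 and -0.92, so that SLC20A1 no longer passed the limit for a DEG.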

How the data were processed

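RNA of RPE-1 cells was sequenced in 5 DMSO and 5 SFN replicates. The authors deposited raw counts per Ensembl gene, not normalized and with replicates separate. Their notes name FastQC, STAR, featureCounts and edgeR with GRCh38, and the methods a Bluebee pipeline for QuantSeq, so the aligner and counter are given differently by these sources, and the use of strand or molecular identifiers is not given in the sources used here. All 10 count columns were used.

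The low-count filter (filterByExpr), TMM scaling and quasi-likelihood test (glmQLFit, glmQLFTest) were those of edgeR 4.0.16 in R 4.3.3, with Benjamini-Hochberg adjustment. As in the methods, a gene was a DEG where its adjusted p was under 0.05 and its log2 fold change above 1 in size. The SE of a log2 fold change is its size over the root of F. Within-library differences used log2 CPM with a prior count of 2. The study's dream model, which accounted for repeated measures, was not run. Limma 3.58.1 (voom, quantile normalization) and DESeq2 1.42.0 were alternatives, as were other scalings and filters, a replicate block and leaving out each library. No pair of replicates agreed within sampling noise (chi-square per degree of freedom 3.50 to 243). Statistics were tested on simulated data. Transcript lengths (GENCODE 44 canonical transcripts) covered 13324 tested genes.

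The 10 genes and the lists were chosen with earlier results of these data known. Named are the 10 genes, listed genes that were called, the light chains SLC7A7, SLC7A8, SLC7A10 and SLC7A11, and up to 3 other SLC genes in each direction by fold change, if DEGs without overlap whose mean was 5 CPM or more. Other SLC genes, here and below, are those whose symbol has the letter A between its numbers. The pigment epithelium markers and the members of overlapping gene pairs are named as checks, and EIF2AK4, SLC38A9 and SLC36A1 were named after their values were seen.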

Additional observations from a re-analysis of the deposited data

Results flagged for a closer look

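In groups of 5 libraries, a value was singled out where its gap to the nearest library exceeded 0.71 of the whole range, which chance does in about 1 of 20 groups. Of 30 groups examined (10 genes and 5 pairs, each in DMSO and in SFN), 7 were singled out where chance would give 1.5, and DMSO replicate 1 was the library in 6 of them. In DMSO, this library was apart with a gap of 0.881 of the range for SLC7A1, 0.843 for SLC7A6, 0.832 for SLC1A4 and 0.818 for SLC7A5, and it was the lowest library in each. It was also apart for SLC7A5 minus SLC3A2 (0.815) and SLC7A6 minus SLC3A2 (0.762), which share the counts of those genes and are not separate evidence. In SFN, replicate 5 was apart for SLC38A1, as the highest library, with a gap of 0.762 of the range. The lowest DMSO values of SLC7A1, SLC7A5, SLC7A6 and SLC1A4 were thus all in 1 library.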

How the results depend on the processing

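Of 190 values (10 transporters, 19 alternatives each), 175 kept their direction and side of the threshold. With all libraries SLC7A6 was at 0.093 and SLC43A1 at -0.15, and with a library left out they lay between -0.094 and 0.16 and between -0.28 and 0.071. SLC7A6 reversed to -0.018 with scaling by library size and to -0.094 without DMSO replicate 1, and SLC43A1 reversed to 0.059 by limma-voom and to 0.071 without DMSO replicate 1. Transporters called higher numbered 4, and 3 to 5 when a library was left out. DEGs among them numbered 2, and 1 with scaling by library size, 1 by glmTreat and 1 to 2 when a library was left out. The cause of these changes was not tested. The offset for transcript length was chosen after seeing the data. Other SLC genes called higher (13) numbered 7 with scaling by library size, 22 by DESeq2, 20 by limma-voom, 29 with the length offset and 10 to 28 when a library was left out, and those called lower (13) numbered 8 to 30 when a library was left out. When a library was left out, other plasma membrane transporters called higher stayed at 1 and those called lower numbered 0 to 1, lysosomal transporters called higher 0 to 1 and lower 0 to 1, and sensors called higher 2 to 3 and lower 1 to 2. Without a low-count filter 3 other plasma membrane transporters were higher, and with the length offset 1 lysosomal transporter was. Of all genes, 906 to 3058 were higher and 1470 to 3193 lower when a library was left out, the highest counts being without DMSO replicate 1, and 2038 were higher with the length offset. SLC6A9, with 8 to 37 counts a library, had the widest 95% interval of the 10 genes.

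With the replicate number as a block, 4 transporters were called, and 911 genes were higher and 1530 lower. Deviations of same-numbered libraries correlated at 0.04, -0.27, -0.06, 0.03 and 0.48, and 1 of 5 DMSO libraries matched its own number best, so the numbers were not taken to pair the libraries.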
